A study of Mus musculus with 4 samples.

Results

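Claudins are the membrane proteins that form the strands of tight junctions, and 7 claudin genes were followed here: Cldn2, Cldn3, Cldn4, Cldn5, Cldn7, Cldn15 and Cldn18. They were chosen by name, as 7 of the 19 claudin genes in the count tables, which together list 22005 genes. Each was read across the authors' singlet classes and in the multiplets of both tissues. The series holds 4 droplet RNA libraries, of small intestinal multiplets, small intestinal singlets, lung multiplets and lung singlets. All came from mice of the inbred strain C57BL/6J. Intestinal libraries came from the epithelium and lung libraries from the whole organ, dissociated mechanically and with enzymes. A multiplet is a clump of cells that share 1 barcode, and a singlet is 1 cell. No treatment or genetic change is named for any library. The age and number of animals, and the way multiplets were separated from singlets, are not given in the sources used here.

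Each group had 1 library, so the spread between animals or libraries is unknown and no test was run. Intervals are 95% counting intervals (Poisson for levels, Clopper-Pearson for shares, conditional binomial for ratios of CPM). Ratios to UMIs of a marker gene or to predicted UMIs have Poisson intervals of the claudin UMIs alone, which take the other count as exact. A gene was called higher or lower only by size, at more than 1.5-fold. Median depth was 12603 unique molecular identifiers (UMIs) per barcode in 3671 intestinal multiplets and 8759 in 5279 intestinal singlets. It was 11934 in 4729 lung multiplets and 7896 in 6084 lung singlets. Multiplet and singlet tables had 4 barcodes in common for the small intestine and 2 for the lung. Most markers listed for these classes were highest in the class of their name. Lgr5, Muc2, Lyz1, Dclk1 and Chga were highest in the stem, goblet, Paneth, tuft and enteroendocrine classes. Foxj1, Cdh5, Msln and Ager were highest in the ciliated, endothelial, mesothelial and type I pneumocyte classes. Exceptions were Fabp4, listed for alveolar macrophages and highest in the endothelial class, and Cd68, listed for macrophages and highest in the alveolar macrophage class. The lung macrophage class held the most RNA of the neutrophil genes S100a8, S100a9 and Retnlg. Levels are given as CPM, UMIs of a gene per 1000000 UMIs of the class or library, and are compared for 1 gene at a time.

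Tight junctions close the gap between neighbouring cells of an epithelium or endothelium, and the claudins in them set what may pass. Claudin-2 and claudin-15 form cation channels in the intestinal epithelium, and claudin-2 also lets water through. Claudin-3, claudin-4 and claudin-5 tighten junctions. Claudin-7 also lies along the lateral membrane, where it binds EpCAM. Claudin-5 is the main claudin of endothelium, and claudin-18 that of the alveolar epithelium and the stomach.

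Cldn4 and Cldn3 are neighbours on mouse chromosome 5 (GENCODE vM21, GRCm38). Cldn4 occupies chr5:134945119-134946934 on the minus strand and Cldn3 chr5:134986214-134987472 on the plus strand, 39279 bases apart, and each has 1 exon. Cldn15 lies farther along chromosome 5 at 136966616 to 136975858. The others are at chrX:139800828-139811386 (Cldn2), chr16:18776847-18778262 (Cldn5), chr11:69964779-69967885 (Cldn7) and chr9:99689461-99717267 (Cldn18). All 7 genes matched a RefSeq promoter window of 250 bases before to 50 bases after a start in GRCm38.p6. Cldn7 and Cldn18 have 2 annotated starts each. The 3′ counts do not tell which start a molecule came from.

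Promoter windows of 4 members are shown because their class patterns are set against each other in the results: Cldn3 and Cldn7 were alike across classes, Cldn4 differed from its neighbour Cldn3, and Cldn2 was high in stem and progenitor classes. They are chr5:134985964-134986263 (Cldn3, plus strand), chr5:134946885-134947184 (Cldn4, minus strand), chr11:69965171-69965470 (Cldn7, the second start, plus strand) and chrX:139800558-139800857 (Cldn2, plus strand). Capitals mark matches, on either strand, to 5 motifs. The motifs were the TATA box with the letters TATAAA, an E-box with the letters CAGGTG that Snail family repressors of claudin genes bind, the GC box with the letters GGGCGG, a Cdx core with the letters TTTATG and an Nkx core with the letters CAAGTG.
Cldn3: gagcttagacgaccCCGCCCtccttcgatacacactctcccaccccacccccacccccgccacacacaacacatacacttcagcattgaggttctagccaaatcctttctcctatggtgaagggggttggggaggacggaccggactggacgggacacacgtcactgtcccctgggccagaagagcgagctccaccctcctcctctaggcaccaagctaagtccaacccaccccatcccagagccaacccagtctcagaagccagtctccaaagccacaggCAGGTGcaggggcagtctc
Cldn4: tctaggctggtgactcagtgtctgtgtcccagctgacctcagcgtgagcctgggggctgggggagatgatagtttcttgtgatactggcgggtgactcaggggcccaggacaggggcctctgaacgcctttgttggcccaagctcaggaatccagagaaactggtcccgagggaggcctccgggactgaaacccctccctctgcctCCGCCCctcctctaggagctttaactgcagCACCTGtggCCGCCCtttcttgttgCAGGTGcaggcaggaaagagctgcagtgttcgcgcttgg
Cldn7: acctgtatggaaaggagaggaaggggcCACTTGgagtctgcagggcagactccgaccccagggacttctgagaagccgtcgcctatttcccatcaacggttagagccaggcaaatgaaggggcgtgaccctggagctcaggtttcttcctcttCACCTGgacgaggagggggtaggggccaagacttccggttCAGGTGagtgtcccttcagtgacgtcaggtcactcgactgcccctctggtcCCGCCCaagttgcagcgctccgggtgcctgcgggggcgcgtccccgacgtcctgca
Cldn2: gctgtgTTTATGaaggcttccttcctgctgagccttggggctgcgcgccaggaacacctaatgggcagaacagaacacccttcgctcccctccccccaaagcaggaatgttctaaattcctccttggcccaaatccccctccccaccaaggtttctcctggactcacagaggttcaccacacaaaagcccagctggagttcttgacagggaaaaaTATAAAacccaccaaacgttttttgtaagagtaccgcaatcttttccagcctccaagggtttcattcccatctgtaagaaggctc
The E-box letters occurred in the windows of Cldn3 (first base at 32 from the start), Cldn4 (-14 and 12) and the second start of Cldn7 (-97 and -57), and in none of the other members' windows. Of all 32851 RefSeq windows, 20.2% hold a match to it. A TATA box stood at -35 in the Cldn2 window, and 13.6% of all windows hold one. The Cldn2 window also held the Cdx letters at -244, which 11.9% of all windows hold. The GC box occurred in the windows of Cldn3, Cldn4 and Cldn7 shown here and in 35.7% of all windows, and the Nkx core in that of Cldn7 and in 13.6% of all windows. The window of the first Cldn7 start, chr11:69964529-69964828, is not shown and held none of these motifs. A match of letters is a description of the window and does not show a bound site.

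In intestinal singlets, all 5 members with counts (Cldn2, Cldn3, Cldn4, Cldn7 and Cldn15) differed between classes, each in its own pattern. Cldn5 and Cldn18 were not analysed there. Cldn2, the cation and water pore, was highest in progenitor, stem and transit amplifying classes. It had 257 CPM (233 to 282) in the late-2 progenitors, 145 in early progenitors, 132 in stem cells and 124 in transit amplifying cells. Enterocytes, the mature absorptive cells, had 11.5 CPM (7.28 to 17.2), which was 0.0866 times the stem cell level (0.0544 to 0.132). The stem cell interval overlapped those of early progenitors and of transit amplifying cells, while early progenitors (137 to 153) lay above transit amplifying cells (117 to 130). The late progenitor classes lay on opposite sides of these, because late-1 progenitors had 62.0 CPM and late-2 progenitors 4.14 times as much (3.61 to 4.75). Goblet, Paneth and tuft cells had 27.0, 11.7 and 9.92 CPM, and enteroendocrine cells 36.7.

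Cldn15, the other cation channel, was highest in enterocytes, where Cldn2 was low, and had a narrower range along the stem, progenitor and enterocyte classes. It had 665 CPM (630 to 702) in enterocytes, 585 in late-1 progenitors and 454 in late-2 progenitors, against 436, 435 and 355 in early progenitors, transit amplifying cells and stem cells. The enterocyte level was 1.87 times the stem cell level (1.73 to 2.03). Goblet cells had 498 CPM and enteroendocrine cells 193. Tuft cells, the chemosensory cells of the epithelium, had the lowest level at 45.3 CPM, with 32 UMIs in 112 cells, and 14.5 CPM without the 7 cells marked as doublets. Late-2 progenitors therefore held much Cldn2 and an intermediate level of Cldn15, and enterocytes held little Cldn2 and the highest level of Cldn15.

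Cldn3 and Cldn7 were detected in every intestinal class. Cldn3 was highest in late-2 progenitors at 1541 CPM (1482 to 1602), followed by late-1 progenitors at 1008. Goblet, tuft and enterocyte classes had 891, 843 and 812 CPM, with overlapping neighbours in that order. Early progenitors, stem cells, transit amplifying cells and enteroendocrine cells had 632, 507, 461 and 394 CPM. Cldn7 also peaked in late-2 progenitors, at 1852 CPM (1787 to 1918), before late-1 progenitors at 1478 and early progenitors at 1253. Its other levels lay between 837 CPM in enteroendocrine cells and 1095 in transit amplifying cells, except in Paneth cells. Across the 10 classes the log2 levels of Cldn3 and Cldn7 had a Pearson r of 0.883, given as a description since all classes come from 1 library and share its totals.

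Cldn4 had another pattern than its neighbour Cldn3. Enteroendocrine, Paneth and goblet cells had 151 (128 to 176), 47.2 and 41.2 CPM, and 160, 109 and 379 UMIs. Tuft cells had 5.67 CPM, stem cells 4.46, and the 5 remaining classes 1.20 or less, with 0 UMIs in the 728 late-1 progenitors. The enteroendocrine, Paneth and goblet classes, the 3 highest for Cldn4, were summed. Their level was 61.4 times that of the stem, transit amplifying, progenitor and enterocyte classes together (42.3 to 92.4), with 648 and 29 UMIs. Grouping the highest classes widens this ratio, and tuft cells are in neither group. After each cell was thinned to 1000 UMIs, Cldn4 was found in 14.3% of enteroendocrine cells and in 0 of 191 enterocytes. At that depth, a limit of 3 counts allows up to 1.57% of enterocytes with a UMI. Before thinning the shares were 46.9% and 0.524%, at median depths of 5655 UMIs in enteroendocrine cells and 11039 in enterocytes. Enteroendocrine cells, with 3.65 times the goblet level of Cldn4 (3.02 to 4.404), had 0.442 times the goblet level of Cldn3 (0.400 to 0.488).

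Paneth cells, which secrete antimicrobial proteins at the crypt base, had low CPM of 4 members, the lowest of any class for Cldn3 and Cldn7: 11.7 for Cldn2, 150 for Cldn3, 157 for Cldn7 and 78.0 for Cldn15. In this class 31 genes that reach 1% of some intestinal class took 79.4% of all UMIs, led by Defa24 at 30.8%, against 6.35% to 18.1% in the other classes. With those genes left out of the totals, a choice made after seeing the data, Paneth cells had 731 CPM of Cldn3, 765 of Cldn7 and 379 of Cldn15, and stem cells 549, 952 and 384. Cldn2 then had 56.9 CPM in Paneth cells and 143 in stem cells. The part of these genes in the low Paneth levels was not tested beyond this change of total. Cldn4 reached 230 CPM in Paneth cells and 162 in enteroendocrine cells on that scale, so the highest class of Cldn4 depended on the totals. Per cell, Paneth cells held 3.94 UMIs of Cldn3, between 2.39 in enteroendocrine cells and 12.6 in late-2 progenitors. These counts per cell are not at equal depth. Median depth was 25594.5 UMIs in Paneth cells, 5655 in enteroendocrine cells and 8265 in late-2 progenitors.

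**Figure D1:**
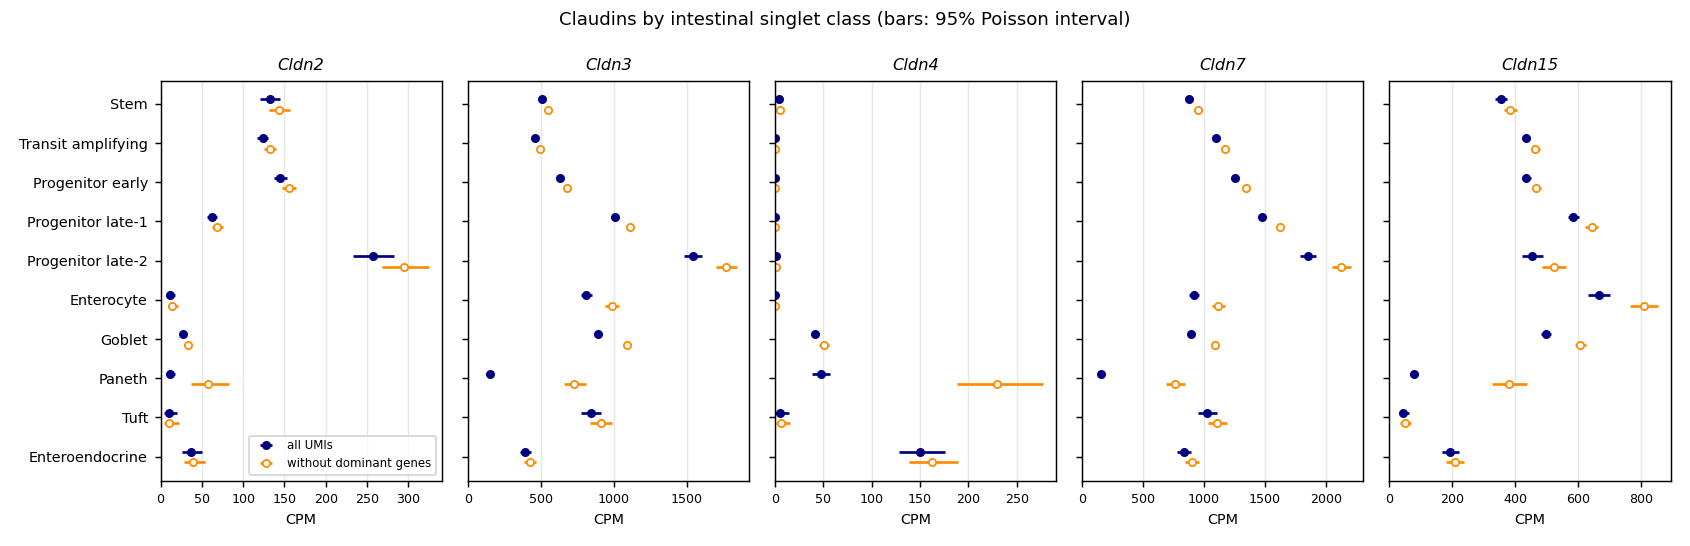
Level of 5 claudin genes in CPM (x axes, linear) in the 10 intestinal singlet classes, with all UMIs in the total (filled) and with dominant genes left out (open); bars are 95% Poisson intervals. Cldn2 has 11.5 CPM in enterocytes, where Cldn15 is highest at 665 CPM. Cldn4 stands in the enteroendocrine, Paneth and goblet classes, and the Paneth points move most between the scales.

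In lung singlets the members split by epithelium, endothelium and mesothelium. Cldn18, the alveolar claudin, had 891 CPM (877 to 906) in the 1009 type II pneumocytes, the surfactant-making cells. It had 1702 CPM (1362 to 2103) in type I pneumocytes, the thin gas exchange cells, but that class held 6 cells and 86 UMIs. Ciliated cells had 244 CPM, 0.274 times the type II level (0.249 to 0.300). Endothelial cells and Clara cells, the secretory club cells of the airway, had 71.0 and 53.9 CPM, and a single cell held 40.7% and 47.6% of those UMIs. The other classes had between 2.86 and 20.5 CPM.

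Cldn3 was highest in ciliated cells at 1320 CPM (1270 to 1372), then in type II pneumocytes at 543 and Clara cells at 215. The ciliated level was 2.43 times the type II level (2.33 to 2.54). No Cldn3 UMI was found in the 6 type I pneumocytes, where the upper end of the Poisson interval was 73.0 CPM. Cldn7 followed with 435 CPM in ciliated cells, 135 in type II pneumocytes, 116 in Clara cells and 99.0 in type I pneumocytes. The type II, Clara and type I intervals of Cldn7 overlapped. In 11 lung classes of at least 20 cells, Cldn3 and Cldn7 had a Pearson r of 0.981, again as a description. Cldn4 had 11.98 CPM in Clara cells and 4.55 in ciliated cells, with 14 and 9 UMIs, and 57.1% of the Clara UMIs were in 1 cell. Cldn2 had 12 UMIs in all lung singlets.

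As in Paneth cells, a few genes filled some lung classes: 26 genes took 59.2% of UMIs in Clara cells, with Scgb1a1 alone at 50.7%, and 37.8% in type II pneumocytes. With these left out, Cldn3 had 526 CPM in Clara cells, 874 in type II pneumocytes and 1461 in ciliated cells, and Cldn18 had 1433 in type II pneumocytes. That Cldn18 value is not on the scale of the 1702 CPM given for type I pneumocytes, where these genes took 20.1% of UMIs. The order of the 3 classes for Cldn3 was the same on both scales. For Cldn7 it was not: without these genes Clara cells had 285 CPM (239 to 337) and type II pneumocytes 217 (208 to 226), so which of these classes held more Cldn7 depended on the totals.

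Cldn5 marked the endothelial class. It had 1733 CPM (1641 to 1829) there, and 5.57 CPM or less in the 11 other classes outside type I pneumocytes. Over those 11 classes together it had 69 UMIs, so that the endothelial level was 1402 times theirs (1101 to 1813). Type I pneumocytes had 99.0 CPM, but all 5 of those UMIs were in 1 of the 6 cells. After each cell was thinned to 1000 UMIs, 73.1% of endothelial cells (64.2 to 80.8) had a Cldn5 UMI, against 0 of 2964 cells of the Fibroblast-1 class, for which a limit of 3 counts allows up to 0.101% of cells with a UMI at that depth. Before thinning, 95.8% of endothelial cells and 0.371% of Fibroblast-1 cells had a Cldn5 UMI, and median depth was 5205 UMIs in endothelial cells and 6562 in the Fibroblast-1 class. Cldn15 was found in the lung in mesothelial cells, the covering of the organ. They had 807 CPM (640 to 1004) from 80 UMIs in 10 cells. A UMI was seen in 90.0% of these cells at full depth and in 5 of 10 (18.7% to 81.3%) after thinning. All other lung classes had 2.29 CPM or less.

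**Figure D2:**
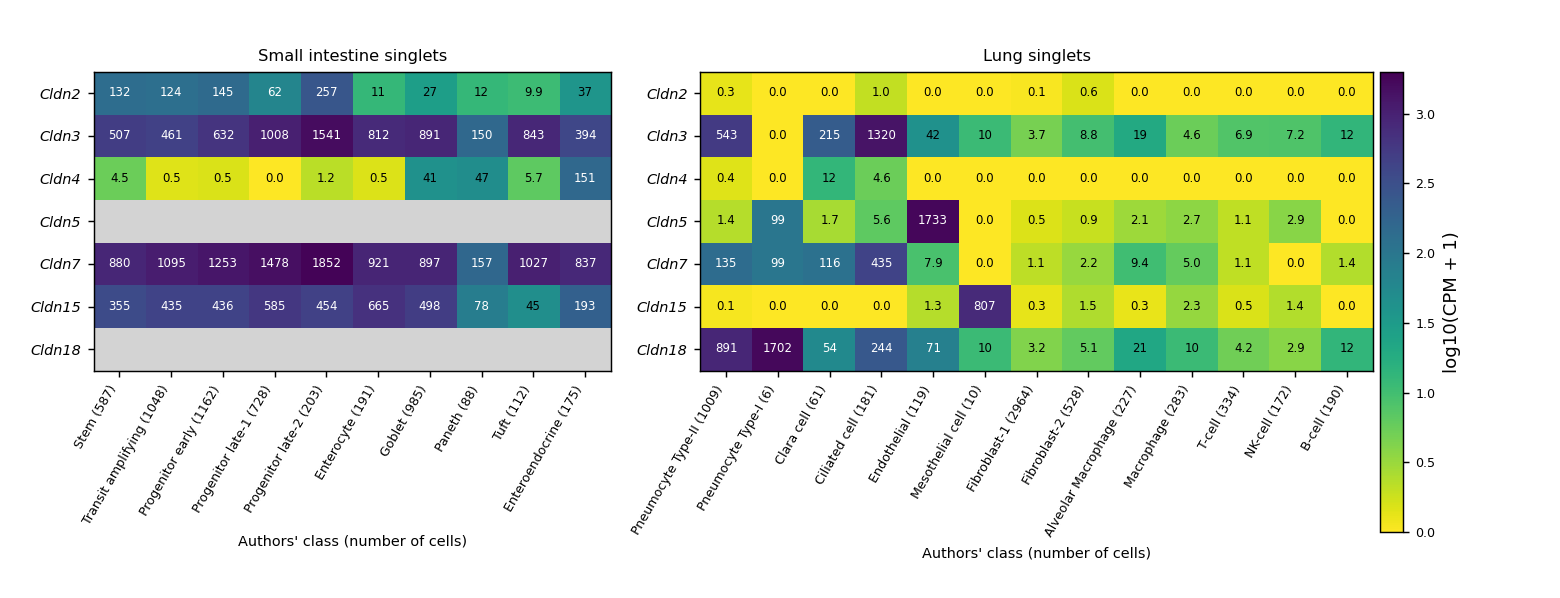
Level of the 7 claudin genes in the singlet classes of small intestine (left) and lung (right), printed in CPM and coloured by log10(CPM + 1), with the number of cells in brackets; grey rows were not analysed. In the lung Cldn5 stands in the endothelial column at 1733 CPM and Cldn15 in the mesothelial column at 807 CPM, and Cldn3, Cldn7 and Cldn18 in epithelial columns.

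Low lung levels were set beside the level of Sftpc, whose RNA was found in every class. Sftpc encodes surfactant protein C and had 221097 CPM in type II pneumocytes and between 911 and 12459 CPM in the other classes. For every 1000 Sftpc UMIs, type II pneumocytes held 4.03 UMIs of Cldn18 (3.97 to 4.10). The ratio was 84.1 in ciliated cells (76.7 to 91.9), 7.59 in Clara cells and 5.70 in endothelial cells (4.28 to 7.44). It was 3.84 in alveolar macrophages, 3.99 in the Fibroblast-2 class and 2.96 in T cells, whose intervals include the type II ratio. The ciliated, Clara and endothelial ratios of Cldn18 lay above the type II interval, and the Fibroblast-1 ratio of 2.59 (2.01 to 3.27) lay below it. Without the cell with the most Cldn18 UMIs, the Clara level fell from 53.9 to 28.9 CPM and the endothelial level from 71.0 to 43.7. The Clara and endothelial ratios to Sftpc were not computed without that cell, so they are not read as traits of these classes. Type I pneumocytes had a ratio of 1870 (1495 to 2309), from 6 cells with 46 Sftpc UMIs. This interval leaves out the counting error of those 46 UMIs and is too narrow. The ratios of alveolar macrophages and T cells did not differ from the type II ratio beyond counting error. For Cldn3 the ratio was 455 in ciliated cells and 30.2 in Clara cells, against 2.46 in type II pneumocytes. Smaller ratios above the type II interval were found for Cldn3 in the Fibroblast-2 class at 6.84 (5.04 to 9.06), in T cells at 4.81 (2.56 to 8.23) and in alveolar macrophages at 3.51 (2.70 to 4.48). Without the cell with the most Cldn3 UMIs, the alveolar macrophage level fell from 18.8 to 12.1 CPM. The alveolar macrophage ratio was not computed without that cell, so it is not read as a trait of the class. For Cldn7 the type II ratio was 0.609. It was 16.4 in Clara cells, 2.68 (1.43 to 4.59) in the macrophage class, 1.75 (1.20 to 2.48) in alveolar macrophages and 1.71 (0.883 to 2.99) in the Fibroblast-2 class.

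**Figure D3:**
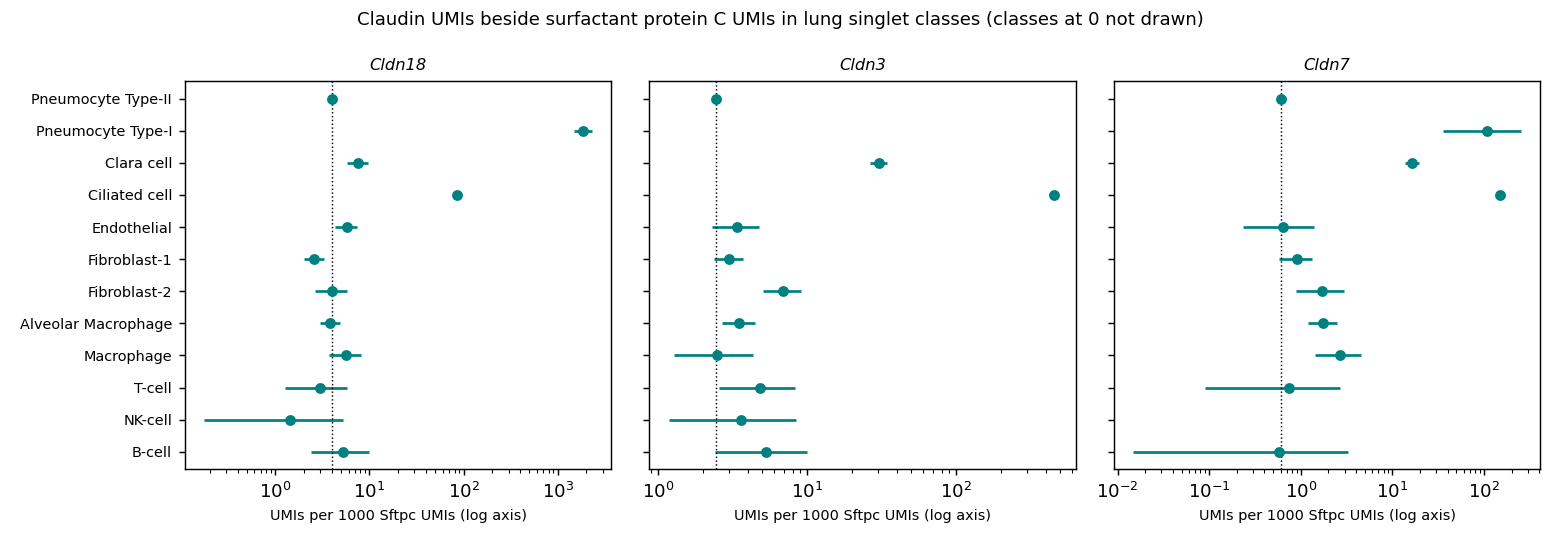
UMIs of Cldn18, Cldn3 and Cldn7 per 1000 Sftpc UMIs (x axes, logarithmic) in lung singlet classes, with 95% Poisson intervals of the claudin UMIs alone. Dotted lines mark the type II pneumocyte ratio. Ciliated cells lie far to the right of the line for all 3 genes, at 84.1 for Cldn18, and alveolar macrophages at 3.84 lie near the Cldn18 line at 4.03. The 6 type I pneumocytes lie farther right for Cldn18, at 1870.

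The genes most like each member across classes were picked by the highest Pearson r of log2(CPM + 10), over 10 intestinal or 11 lung classes. For intestinal Cldn2 these were Fgfbp1 (r = 0.982), Fads2 and Etfbkmt, and for Cldn3 they were Chmp2b (0.978), Efnb1 and Myo1d. For Cldn4 they were Egr2 (0.989), Rasd1 and Cxxc5. Epcam, whose protein binds claudin-7, was the gene most like Cldn7 (0.988), with Aph1a and Psap next. Isx, an intestinal homeobox gene, was the most like Cldn15 (0.971), before B4galnt1 and Endog. In the lung, Cldn3 was nearest to Foxa1 (0.994), Cxadr and Myh14, and Cldn7 to Krt8 (0.995), Smim22 and Cgn, the scaffold gene of cingulin. Cldn5 was nearest to Rprml (0.998) and the endothelial sialomucin genes Podxl and Emcn, and Cldn18 to Ppp1r14c (0.986), Adgrg1 and Arhgef38. Classes of 1 library share its free RNA and its totals, and 8148 intestinal and 10541 lung genes were searched.

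Intestinal multiplets and singlets differed by less than 1.5-fold in each member. Cldn2 had 89.2 CPM in multiplets and 92.3 in singlets, a ratio of 0.967 (0.927 to 1.01). Cldn3 had 695 CPM in multiplets and 699 in singlets, Cldn4 13.2 and 14.3, and Cldn7 1106 and 1093. Cldn15 had 380 CPM in multiplets and 444 in singlets, the ratio farthest from 1 at 0.857 (0.841 to 0.874). None of the 5 members passed the size limit, where 5.29% of 11674 genes did (1.42% higher, 3.87% lower). The median ratio of these 5 was 0.967, beside 0.933 over all genes.

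Lung multiplets differed for 3 of the 6 members with at least 50 UMIs in a library, all 3 higher, where 15.9% of 15098 genes were called higher, 13.8% lower and 29.7% in either direction. Cldn5 had 161 CPM in multiplets and 24.6 in singlets, a ratio of 6.57 (6.21 to 6.95), from 10700 and 1392 UMIs. Cldn15 had 14.6 CPM in multiplets and 1.89 in singlets, a ratio of 7.74 (6.33 to 9.54), from 969 and 107 UMIs. Cldn4 had 1.89 CPM in multiplets and 0.530 in singlets, a ratio of 3.56 (2.38 to 5.50), from 125 and 30 UMIs. The epithelial Cldn3, Cldn7 and Cldn18 stayed within the limit. Cldn3 had 163 CPM in multiplets and 211 in singlets, Cldn7 55.3 and 57.8, and Cldn18 208 and 271. Their ratios were 0.776, 0.957 and 0.769, but with every barcode weighted equally they were 1.01, 1.17 and 1.25, so neither direction is given for them. Cldn2 had 7 UMIs in multiplets and 12 in singlets and was not counted.

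**Figure D4:**
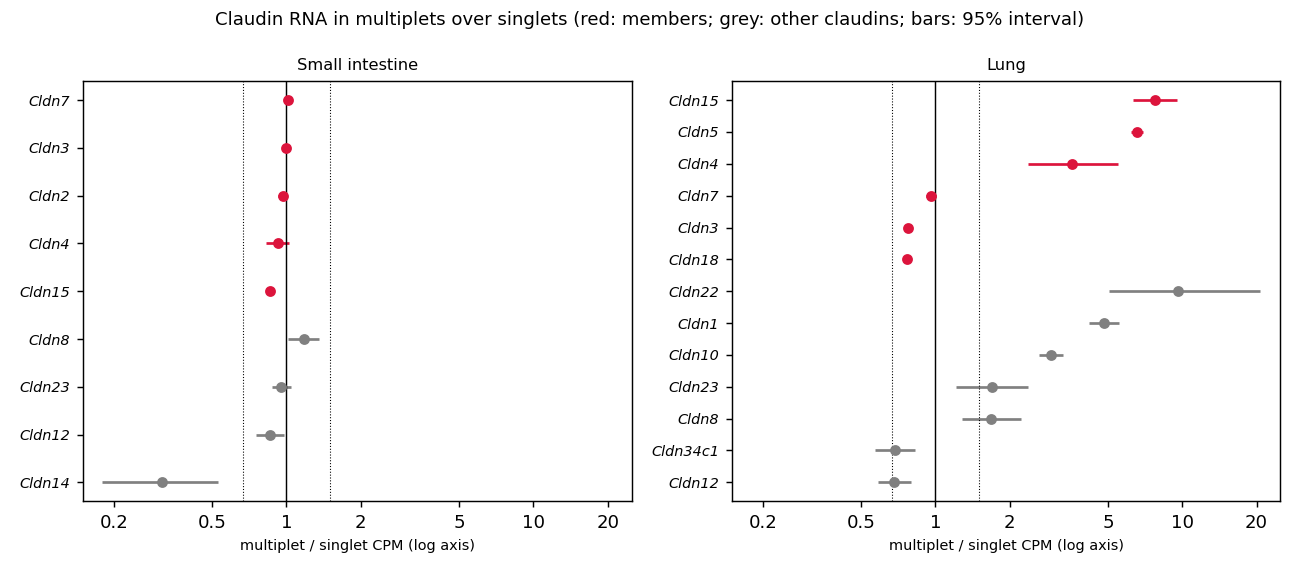
Ratio of multiplet to singlet CPM (x axes, logarithmic) for each claudin gene with at least 50 UMIs in a library, in small intestine (left) and lung (right), with 95% counting intervals; dotted lines mark 1.5-fold. All intestinal members lie between 0.857 and 1.01, and lung Cldn15, Cldn5 and Cldn4 lie at 7.74, 6.57 and 3.56.

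The share of barcodes with RNA of each class was set beside these ratios. To describe it, every multiplet was fitted as a mixture of the singlet classes on marker genes that left out all claudins. A class counted as called when its weight reached 0.15. A multiplet can carry several calls and a singlet has a single class, so shares of multiplets and of singlets are unlike measures. A single class passed in 75.9% of the lung barcodes and 43.0% of the intestinal ones. Endothelial RNA was called in 12.2% of lung multiplets, while 1.96% of lung singlets were in the endothelial class, and Cdh5, the endothelial cadherin, had 97.5 CPM in multiplets and 13.9 in singlets. The 575 multiplets with an endothelial call held 94.0% of all multiplet Cldn5 UMIs. The 4154 others had 10.7 CPM. Mesothelial RNA was called in 2.35% of multiplets, with 0.164% of singlets in that class, and these 111 barcodes held 94.9% of Cldn15 UMIs. Multiplets without a mesothelial call had 0.76 CPM of Cldn15. More cells of a class and more RNA per cell cannot be told apart in a library total.

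Within called classes the claudins of the partners stood side by side. Multiplets with an endothelial call alone (351 barcodes) had 2406 CPM of Cldn5 (2352 to 2462), above the 1733 CPM of endothelial singlets (1878 without the 7 of 119 marked as doublets). Endothelial singlets also held 12459 CPM of Sftpc, the most outside type II pneumocytes, and the part of this in their Cldn5 level was not tested. The 23 barcodes called endothelial and type I pneumocyte had 1483 CPM of Cldn5 and 1413 of Cldn18, and no Cldn3 UMI. The 37 called endothelial and type II pneumocyte had 781 CPM of Cldn5, 708 of Cldn18 and 430 of Cldn3. The 31 called endothelial and macrophage had 971 CPM of Cldn5 and 2.40 of Cldn18. Type I pneumocyte calls alone (26 barcodes) had 2635 CPM of Cldn18 (2413 to 2872), 198 of Cldn7 and 10.2 of Cldn3, from 518, 39 and 2 UMIs. In both these multiplets and the 6 type I singlets Cldn18 was high and Cldn3 had at most 2 UMIs. Mesothelial calls alone (66 barcodes) had 774 CPM of Cldn15, against 807 in mesothelial singlets.

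**Figure D5:**
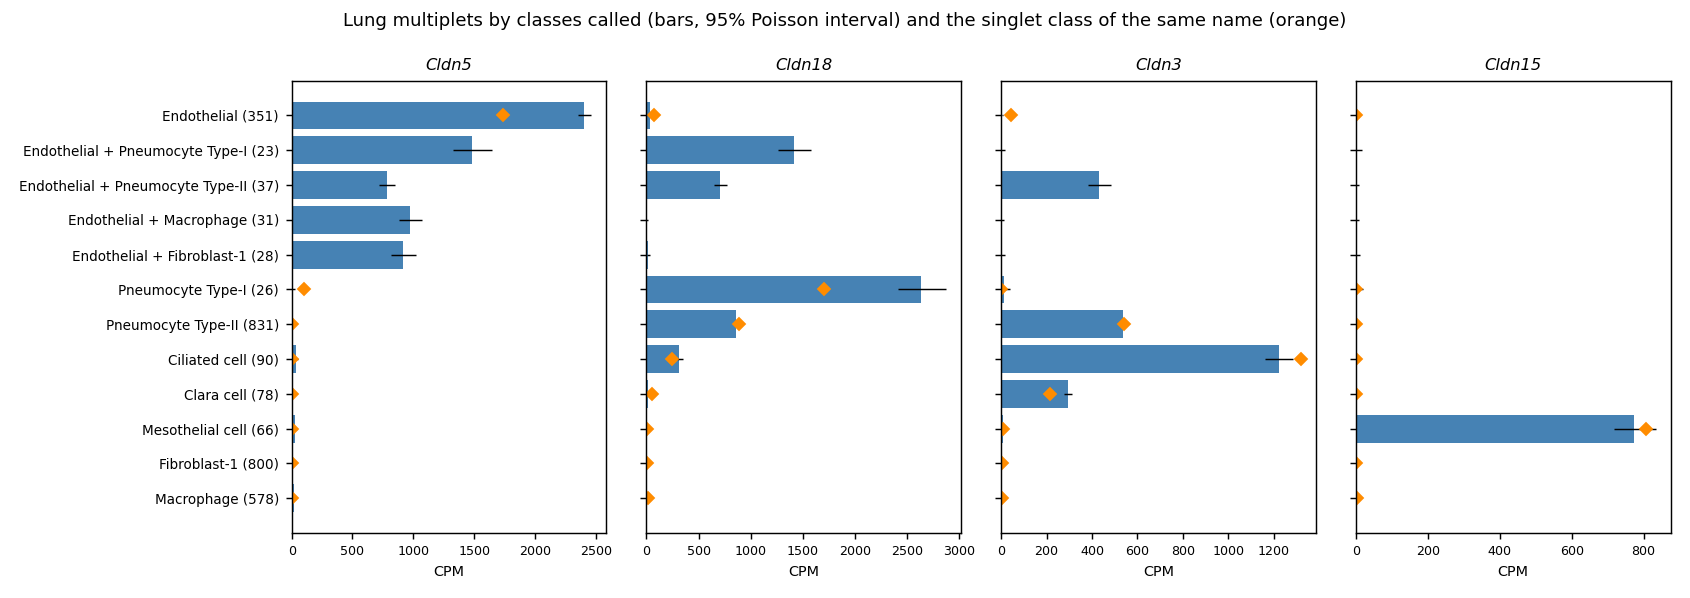
Level of Cldn5, Cldn18, Cldn3 and Cldn15 in CPM (x axes, linear) in lung multiplets grouped by the classes called in them (bars with 95% Poisson intervals, barcodes in brackets) and in the singlet class of the same name (orange). Barcodes called endothelial and type I pneumocyte hold 1483 CPM of Cldn5 and 1413 of Cldn18 together.

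For Cldn2 and Cldn4 the same grouping in the intestine could be set beside the singlet classes. Cldn2 had 4.68 CPM in 177 multiplets called enterocyte alone, 127 in 147 called stem alone and 231 in 132 called late-2 progenitor alone. Cldn4 had 151 CPM in 25 multiplets called enteroendocrine alone and 38.1 in 397 called goblet alone, against 151 and 41.2 in these singlet classes. In 157 multiplets called Paneth alone it had 19.2 CPM (15.2 to 24.0), below the 47.2 CPM of Paneth singlets (38.8 to 57.0). Cldn7 had 139 CPM in Paneth calls alone, 372 in 52 barcodes called Paneth and stem, and 830 in stem calls alone.

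Observed claudin UMIs were set against those predicted by the fitted weights and the singlet profiles. In intestinal multiplets the ratio of observed to predicted lay between 0.889 for Cldn15 and 1.06 for Cldn7, and 0 of 5 members passed 1.5-fold, where 2.2% of 11213 genes did (0.856% higher, 1.35% lower). In lung multiplets 1 of 6 members passed, where 5.72% of 14578 genes did (3.43% higher, 2.29% lower). That member was Cldn4, with 125 observed and 63.0 predicted UMIs, a ratio of 1.98 (1.65 to 2.36). The interval takes the predicted UMIs as exact. That prediction rests on 30 Cldn4 UMIs in all lung singlets, 14 of them in Clara cells, so the interval leaves out much of the counting error. Cldn5 had 10700 observed and 7498 predicted UMIs, a ratio of 1.43 (1.40 to 1.45). Its ratio was 1.29 with a singlet reference without doublets and 1.47 with 20 marker genes per class, both outside that interval. Cldn7, Cldn3, Cldn18 and Cldn15 had 1.10, 0.985, 0.957 and 0.826 times the predicted UMIs.

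Cldn4 in lung multiplets was a gene of few barcodes. Its 125 UMIs lay in 60 of 4729 barcodes, and 10 barcodes held 52.8% of them. Multiplets with a Clara call held 63 of the 125 UMIs, those with a mesothelial call 50 and those with a type II call 30. A barcode can carry several calls, so these counts overlap. The 10 mesothelial singlets held no Cldn4 UMI. A single barcode of 70826 UMIs held 24. That barcode, chosen after its values were seen, also held 217 UMIs of Krt13 and 187 of Krt4, which are 87.1% and 65.2% of those genes' UMIs in all lung multiplets, and 69 of Cldn3. Krt4 and Krt13 encode keratins of stratified epithelium. With the barcode of most Cldn4 UMIs left out of each library, the ratio to singlets was 3.92, another choice made after seeing the data.

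Pairs of members were also counted in single barcodes, each thinned to 1000 UMIs. Cldn5 and Cldn18 were found together in 34 of 4729 lung multiplets, or 0.719% (0.498 to 1.003), and in 1 of 6084 lung singlets. Cldn5 itself was found in 419 of these multiplets and 89 singlets. Of the barcodes with Cldn5, 8.11% (5.68 to 11.2) held Cldn18 in multiplets and 1.12% (0.0284 to 6.10) in singlets, with overlapping intervals. Cldn5 occurred with Cldn3 in 12 multiplets and no singlet, and with Cldn7 in 10 multiplets and no singlet. The epithelial pair Cldn3 and Cldn18 was found in 4.88% of multiplets and 4.72% of singlets, with overlapping intervals. Of 31 pairs in both tissues these 3 were higher in multiplets with intervals apart, and 1 was lower. The lower pair was intestinal Cldn7 and Cldn15, in 21.0% of multiplets and 23.8% of singlets. That pair had overlapping intervals at 500 UMIs (7.93% of multiplets and 8.98% of singlets) and was higher in multiplets without thinning (92.1% of multiplets and 88.8% of singlets). The count of higher pairs was 21 without thinning and 1 at 500 UMIs, and no pair was lower at either depth.

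Other tight junction genes were read as lists. In intestinal multiplets 1 of 8 membrane proteins other than claudins was past the limit, Esam at 0.503 times the singlet level, and none of 13 scaffold genes or of 8 claudin partners and adherens junction genes. In lung multiplets 4 of 10 membrane proteins were higher and 1 lower. The 4 were Esam (2.20), F11r (1.96), Lsr (1.82) and Marveld2 (1.62), and the lower gene was Jam3 (0.558). Of 14 lung scaffold genes Patj was higher (1.56) and Mpdz lower (0.552), and among the partner and adherens junction genes Cdh5 (6.99) was higher. Over all genes, 5.29% passed the limit in the intestine, and 15.9% were higher and 13.8% lower in the lung. Median ratios in the lung were 1.33 for the membrane proteins and 1.02 for the scaffold genes, beside 0.963 over all genes. In lung singlets Esam was highest in endothelial cells at 329 CPM, as Cldn5 was, and Lsr was highest in ciliated cells and alveolar macrophages at 84.0 and 83.8 CPM. The alveolar macrophage class also held 169 CPM of Epcam, with 18.8 of Cldn3 and 9.38 of Cldn7. Its Cldn3 level was 12.1 CPM without the 1 cell that held 35.9% of the UMIs, and 10.7 with cells weighted equally. Their part in the lung ratios was not tested.

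Of the remaining claudins, Cldn14 had 73.7 CPM in intestinal tuft cells (55.0 to 96.6) and 60 UMIs in all intestinal singlets, 52 of them in that class. Its level in multiplets was 0.314 times that in singlets, and the tuft marker Dclk1 had 9.28 CPM in multiplets and 20.9 in singlets. Cldn8 had 46.3 CPM in late-2 progenitors, the class in which Cldn2, Cldn3 and Cldn7 were highest. In the lung, Cldn10 had 214 CPM in Clara cells, and Cldn1 had 70.6 CPM in mesothelial cells, from 7 UMIs, and 30.5 in the macrophage class. The multiplet level was 2.94 times the singlet level for Cldn10 and 4.83 times for Cldn1. S100a8, highest in the same macrophage class as named above, had 727 CPM in multiplets and 71.7 in singlets. Cldn22 had 9.66 times the singlet level in multiplets (5.06 to 20.7), from 113 and 10 UMIs, with 69.0% of the multiplet UMIs in 10 barcodes, and Cldn23 and Cldn8 had 1.69 and 1.68 times. Cldn12 and Cldn34c1 stayed within the limit in the lung, at 0.682 and 0.686, as Cldn8, Cldn23 and Cldn12 did in the intestine, at 1.17, 0.952 and 0.858.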

How the data were processed

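Whole-number UMI counts per gene and barcode were deposited by the authors for 4 libraries made with the Chromium 3′ v3 kit, per the labels' protocols. Per the submitters' processing notes, Cell Ranger 4.0.0 and the mm10 build were used. Classes (for singlets) and a quality flag come from the authors' annotation tables. No source used here says how they were made. The tables hold 3671 of 5607 intestinal and 4729 of 8630 lung multiplet barcodes listed as passing, and the others were not analysed here.

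Counts were summed over barcodes or classes and divided by their totals (CPM). Library totals were 50645279 UMIs in intestinal multiplets, 47764845 in intestinal singlets, 66277622 in lung multiplets and 56639425 in lung singlets. Ratios used genes of both tables with at least 50 UMIs in either, without a pseudocount. Multiplets were fitted as Poisson mixtures of the singlet classes by expectation maximization (300 iterations, 40 marker genes per class, 400 intestinal and 520 lung genes). For shares, barcodes were thinned to 1000 UMIs. Scrublet (scanpy 1.11.5) marked 82 of 5279 intestinal and 123 of 6084 lung singlets as doublets, which were kept. TMM factors came from edgeR 4.0.16. The steps were tested on simulated data. Genes were named by rule: the members, other claudins of at least 50 UMIs, the junction lists and the 3 genes most like each member. One gene of the partner list is not reported here, so that list is not counted in full for the lung. The members and lists were chosen with earlier results of these data known. Intervals cover counting error only, not differences between animals or libraries.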

Additional observations from a re-analysis of the deposited data

Results flagged for a closer look

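Cldn15 had a ratio above 1 in the lung and below 1 in the small intestine, where it did not pass the 1.5-fold limit. Its multiplet to singlet ratio was 7.74 in the lung (14.6 CPM in multiplets, 1.89 in singlets) and 0.857 in the small intestine (380 CPM in multiplets, 444 in singlets). Over all intestinal genes the median ratio was 0.933. The difference between tissues was not tested, since each group had 1 library. In lung multiplets, barcodes with a mesothelial call held 94.9% of Cldn15 UMIs. In lung singlets, the 10 mesothelial cells held 80 of the 107 Cldn15 UMIs. The part of mesothelial cells in the lung ratio was not tested.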

How the results depend on the processing

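Every counted member kept its side of the 1.5-fold limit when barcodes were weighted equally, with TMM scaling, with singlets at least as deep as the shallowest multiplet, without Scrublet doublets, without dominant genes in the totals and without the barcode with the most UMIs of the gene. The same held for observed over predicted UMIs with 20 marker genes per class or a reference without doublets. All 5279 intestinal singlets were at least as deep as the shallowest intestinal multiplet, so that setting could not change an intestinal ratio. The lung ratio of Cldn5 was 8.81 against singlets of at least the shallowest multiplet's depth. Without a minimum of UMIs, 4 of 7 lung members passed the limit, because Cldn2 then had 0.499 times the singlet level from 7 and 12 UMIs. Among classes of at least 20 cells, the highest class was the same for 9 of 9 member and tissue pairs with cells weighted equally, without doublets and without the top cell; without dominant genes it was the same for 8, and Cldn4 moved from enteroendocrine to Paneth cells. Pairs of members found together more often in multiplets numbered 21 of 31 without thinning and 1 at 500 UMIs. Without the top cell, Cldn18 had 28.9 CPM in Clara cells and 43.7 in endothelial cells. No paired analysis was possible because each group had 1 library. Classes of 6 and 10 cells limit the type I pneumocyte and mesothelial singlet values.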
